A study of Mus musculus with 35 samples.

Results

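Kinesin motor genes were examined in mouse liver and liver tumors. Members were all genes with an array probe set of their own whose symbol starts with Kif or Kifc followed by a number, with the brightest probe set taken per gene. There were 39 such genes among the 18820 genes tested. They were divided by known role into 11 mitotic kinesins, 16 transport kinesins, 6 kinesins of cilia, 5 others and the pseudogene Kif4-ps.

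RNA of 35 liver samples from 3 mouse models was measured with 1 array per sample. In the DEN model, mice were injected with the carcinogen diethylnitrosamine (DEN, 10 mg per kg) at 15 days of age and examined at 9 months. Its groups were DEN tumor, non-tumorous liver (NTL) of DEN-treated mice and liver of untreated matched mice, with 5 arrays each. In the LT model, tg1223 mice, which express lymphotoxin alpha and beta in the liver, were followed for 12 months and gave 3 tumor and 5 NTL arrays. In the MYC model, the TRE-MYC transgene was combined with LAP-tTA, in which a liver promoter drives tTA. Doxycycline chow (200 mg per kg) kept MYC off until 8 weeks of age, and the model gave 5 tumor and 3 NTL arrays. The LT and MYC models share 4 control arrays from transgene-negative mice, so their comparisons with controls are not independent. By the mouse identifiers, tumor and NTL came from different animals, and those of the 3 MYC NTL samples start with the letters WT, and if these livers carried the transgenes is unclear.

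Kinesins are motor proteins that use ATP to move along microtubules or to take their ends apart. The mitotic kinesins build the spindle, move and align chromosomes and help to split the cell, and they are made mainly in dividing cells. The transport kinesins carry vesicles, organelles and ciliary parts along microtubules in non-dividing cells too. Normal adult hepatocytes divide rarely.

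Promoter sequence is shown for 5 genes because the mitotic class shared letters there that the choice of members did not use. RefSeq promoter windows of GRCm38.p6, from 250 bases before to 50 bases after the start, were matched for 31 of the 39 members. Printed are the 100 bases just before the start of the mitotic genes Kif11, Kif15 and Kif22, and of Kif26b and Kif5c, the genes outside that class with the largest tumor changes. Each is written 5′ to 3′ on the gene's strand. The start is that of the promoter table, which for Kif22 lies 47 bases inside the outer end of the gene model, so part of its printed stretch may be transcribed. Capitals mark TTTGAA or its reverse complement TTCAAA, known from cell cycle promoters, and CCAAT or its reverse complement ATTGG. Of the mitotic class, only Kif11, Kif15 and Kif22 held TTTGAA or TTCAAA whole in the 100 bases before the start. Their stretches therefore do not stand for the class.
Kif11, chr19:37376282-37376381, plus strand: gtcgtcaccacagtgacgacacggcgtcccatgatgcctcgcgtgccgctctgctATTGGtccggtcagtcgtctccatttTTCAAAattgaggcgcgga
Kif15, chr9:122950981-122951080, plus strand: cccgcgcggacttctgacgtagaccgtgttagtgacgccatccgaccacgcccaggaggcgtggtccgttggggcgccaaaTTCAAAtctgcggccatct
Kif22, chr7:127042421-127042520, minus strand: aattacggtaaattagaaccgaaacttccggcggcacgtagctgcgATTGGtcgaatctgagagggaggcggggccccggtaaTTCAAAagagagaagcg
Kif26b, chr1:178529025-178529124, plus strand: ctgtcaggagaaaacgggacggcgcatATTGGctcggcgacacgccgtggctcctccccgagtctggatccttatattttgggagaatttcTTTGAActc
Kif5c, chr2:49619186-49619285, plus strand: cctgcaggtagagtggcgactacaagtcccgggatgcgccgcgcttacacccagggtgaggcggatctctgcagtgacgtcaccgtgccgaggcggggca

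TTTGAA or TTCGAA, searched on both strands, was present in 10 of 11 mitotic windows (90.9%), in 1 of 12 transport windows (8.33%) and in 19.2% of all 32851 windows. Within 50 bases of the start, on either side, it was present in 8 mitotic windows (72.7%), against 5.31% of all. Of these, only Kif11, Kif15 and Kif22 held it before the start. In Kif18b, Kif20b, Kif23, Kif4 and Kifc5b it first began at base 4, 8, 3, 20 and 30 counted from the start. In Kif14 and Kif2c it began 228 and 103 bases before the start. CCAAT, on both strands, was present in 7 mitotic windows (63.6%), in 4 transport windows (33.3%) and in 37.4% of all. In Kif11, Kif15 and Kif22 the letters TTCAAA began 19, 19 and 17 bases before the table's start. Kif26b, which is not a mitotic kinesin, held TTTGAA 9 bases before its start and ATTGG 73 bases before it. The 100 bases of Kif5c held neither. These matches describe letters in a window and do not show that a factor binds there.

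The mitotic kinesins were higher in tumors than in NTL. Of the 11 genes, 9 rose in DEN tumors, 5 in LT tumors and 11 in MYC tumors, and none fell. Their median log2 change was 0.73 in DEN, 0.64 in LT and 1.38 in MYC, where the median of all genes was -0.04, -0.03 and -0.03. A gene was called at an adjusted p under 0.05 (limma, Benjamini-Hochberg adjustment over all genes). Of all genes, 15.6% were called higher in DEN, 10.7% in LT and 11.5% in MYC. Over all 39 members, 16 rose and 6 fell in DEN, 7 and 4 in LT, and 16 and 3 in MYC, where 32.2%, 20.4% and 21.8% of all genes were called in either direction. Of the genes called, 48.3%, 52.3% and 52.8% were higher, and 32.4%, 23.6% and 33.7% once each array was centred on its median. Kif11, Kif14, Kif15, Kif22 and Kif23 were called higher in all 3 models, 4 other mitotic genes in DEN and MYC, and Kif18a and Kifc5b in MYC alone. Every tumor array exceeded every NTL array for 7 mitotic genes in DEN, 7 in LT and 11 in MYC, against 10.7%, 7.4% and 13% of all genes. Bulk RNA cannot tell apart a larger number of dividing cells and more RNA per cell.

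**Figure D1:**
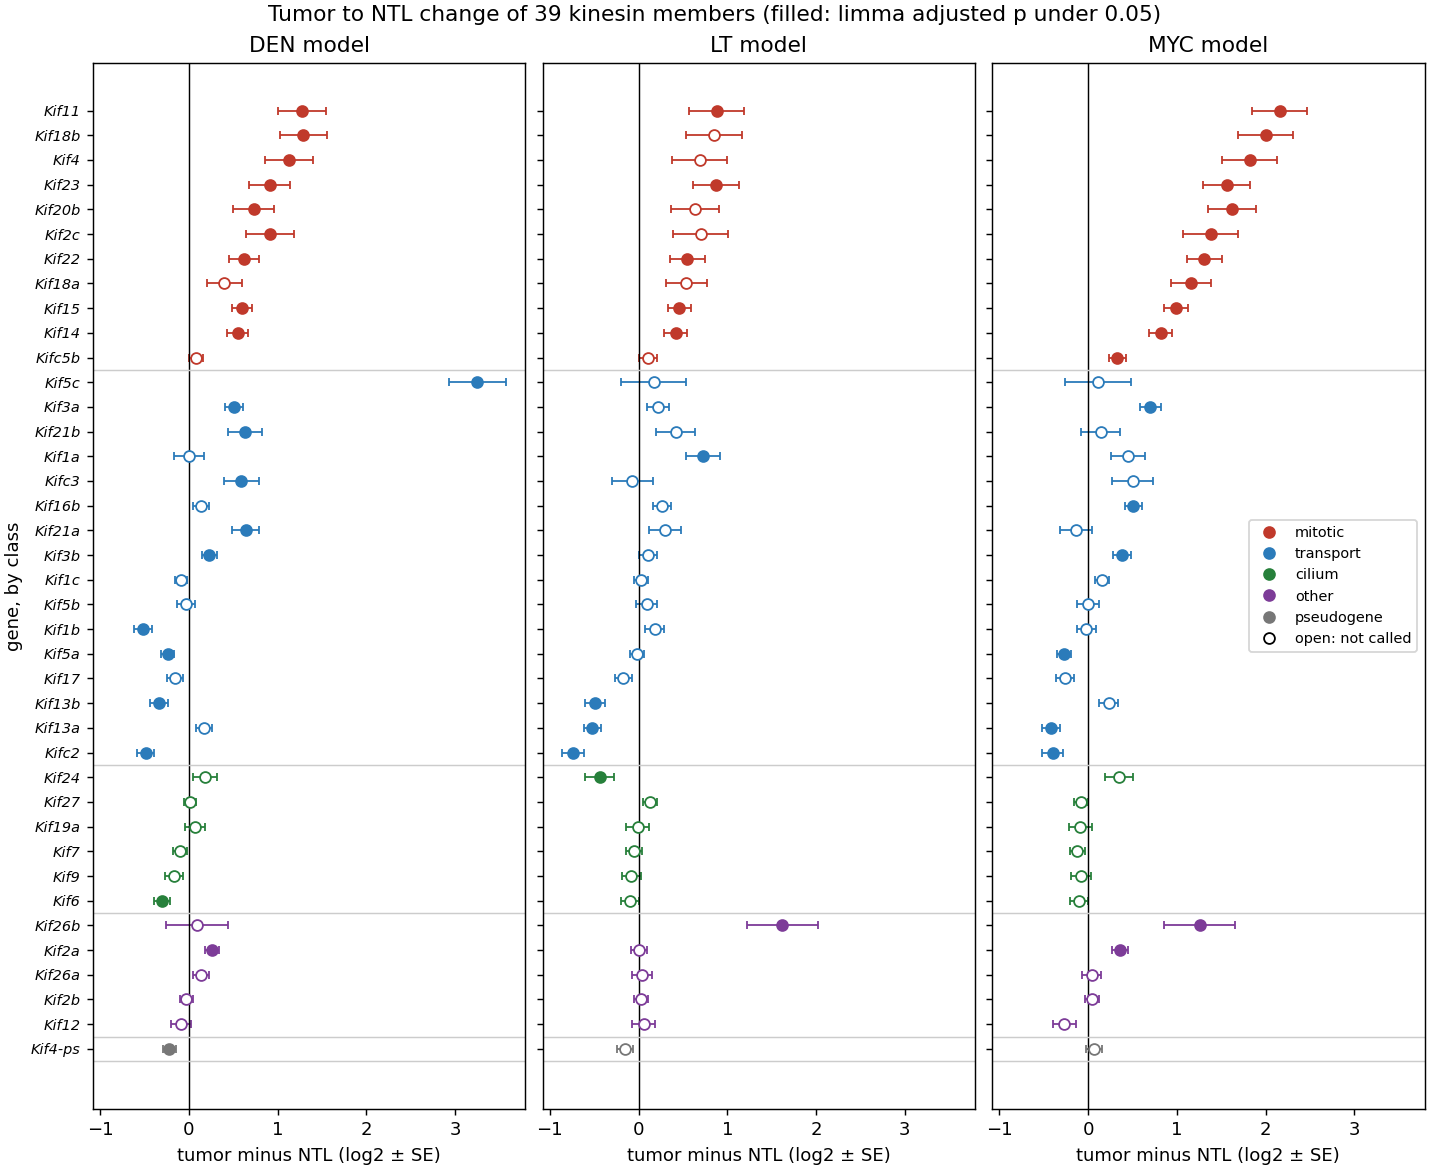
The log2 difference between tumor and NTL means, with its standard error, is plotted for 39 kinesin members in 3 models, and filled points are called. The mitotic genes lie to the right of 0 in each panel, and the transport genes lie on both sides, with Kif5c at 3.25 in the DEN panel.

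Kif11, the motor that pushes spindle poles apart, showed the largest mean change of the mitotic class. In DEN, Kif11 was at a log2 level of 7.16, 6.49, 5.83, 7.74 and 6.25 in the 5 tumors and between 5.27 and 5.73 in NTL. The groups did not overlap, and tumor 4 was highest and tumor 3 lowest. The change was 1.27 ± 0.27 (SE), a 2.41-fold rise, with adjusted p = 0.000444. In LT, Kif11 was at 6.41, 6.69 and 5.63 in the 3 tumors and between 5.19 and 5.49 in NTL. The groups again did not overlap, with tumor 3 close to NTL, and the change was 0.88 ± 0.31 (adjusted p = 0.0424). This call was lost without LT tumor 1 or 2 or any single LT NTL array, at adjusted p between 0.0519 and 0.221. With the mean of the Kif11 probe sets the LT change was 0.45 and not called (adjusted p = 0.227). In MYC, Kif11 was at 7.33, 7.8, 8.76, 7.34 and 6.87 in tumors and at 5.61, 5.37 and 5.39 in NTL. Every MYC tumor lay more than 1 unit above NTL, and the change was 2.16 ± 0.31, or 4.48-fold (adjusted p = 8.64e-06).

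Kif18b, which shortens astral microtubules, was at 6.16, 5.55, 4.98, 7.07 and 5.3 in DEN tumors and between 4.34 and 4.64 in DEN NTL. The groups did not overlap, and the change was 1.29 ± 0.27 (adjusted p = 0.000409). In LT tumors Kif18b was at 5.47, 5.81 and 4.7 against 4.25 to 4.6 in NTL, also without overlap. That difference of 0.85 ± 0.31 was not called (adjusted p = 0.0526). In MYC tumors Kif18b was at 6.55, 6.56, 7.59, 6.25 and 6.0 and in NTL at 4.74, 4.41 and 4.61. The change was 2.0 ± 0.31, or 4.01-fold, with tumor 3 highest. With the mean of the Kif18b probe sets the changes were 0.7 in DEN and 1.08 in MYC, and both were still called.

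Kif4, a motor on chromosome arms, was at 4.83, 4.95, 3.79, 5.74 and 4.33 in DEN tumors and between 3.47 and 3.91 in NTL. DEN tumor 3 lay within the NTL range, and the change was 1.13 ± 0.27 (adjusted p = 0.00142). In MYC tumors Kif4 was at 4.97, 5.58, 6.58, 4.78 and 4.73 against 3.61, 3.51 and 3.41, a change of 1.82 ± 0.31. In LT tumors it was at 4.28, 4.59 and 3.84 against 3.3 to 3.72, and the difference of 0.69 ± 0.31 was not called (adjusted p = 0.113). NTL and control means of Kif4, Kif14 and Kif20b lay at or below the first quartile of the arrays (4.13 to 4.24), so their changes tell direction rather than size. Kif20b, which acts in the last step of cell division, was at 5.07, 4.3, 4.17, 5.43 and 4.42 in DEN tumors and between 3.88 and 4.05 in DEN NTL. In MYC it was at 4.68, 5.17, 6.33, 5.64 and 5.01 in tumors and at 3.88, 3.5 and 3.85 in NTL, and neither pair of groups overlapped. In LT it was at 4.6, 5.0 and 3.72 against 3.63 to 4.05, with tumor 3 inside the NTL range (difference 0.64 ± 0.27, not called). Kif20b changed by 0.73 ± 0.23 in DEN and 1.62 ± 0.27 in MYC, and the DEN call was lost without DEN tumor 4 (adjusted p = 0.0725).

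Kif23, part of the complex that directs cleavage of the cell, was at 6.32, 6.24, 5.28, 7.03 and 5.68 in DEN tumors and between 4.97 and 5.49 in NTL. Tumor 3 overlapped NTL, and the change was 0.91 ± 0.23 (adjusted p = 0.00242). In LT tumors Kif23 was at 5.77, 6.57 and 5.84 against 5.03 to 5.34. These groups did not overlap, and the change was 0.87 ± 0.26 (adjusted p = 0.0173), which was lost without LT tumor 2 (adjusted p = 0.153). In MYC tumors Kif23 was at 6.16, 6.53, 7.41, 6.6 and 6.14 against 5.35, 4.82 and 4.86, a change of 1.56 ± 0.26.

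Kif2c, which takes microtubules apart at centromeres, was at 6.06, 5.89, 5.16, 6.75 and 5.13 in DEN tumors and between 4.74 and 4.98 in NTL. The groups did not overlap, and the change of 0.91 ± 0.27 was lost as a call without DEN tumor 4 (adjusted p = 0.0544). In MYC tumors Kif2c was at 5.95, 6.38, 7.69, 6.12 and 5.57 against 5.1, 4.78 and 5.01, a change of 1.38 ± 0.31. In LT tumors it was at 5.63, 6.12 and 4.82, where NTL ran from 4.73 to 4.91, and the difference of 0.7 ± 0.31 was not called. Kif18a, which aligns chromosomes, was called in MYC (1.16 ± 0.23) and not in DEN (0.4 ± 0.2, adjusted p = 0.13) or LT (0.54 ± 0.23, adjusted p = 0.103). Kif18a was at 5.0, 5.72, 6.52, 5.3 and 4.77 in MYC tumors against 4.15, 4.42 and 4.33 in NTL, and at 4.85, 4.91, 4.68, 5.2 and 4.6 in DEN tumors against 4.03 to 4.59. In LT it was at 4.91, 5.41 and 4.4 against 4.22 to 4.5, and there alone the groups overlapped.

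Kifc5b, a motor of the family that moves to the minus end, changed least. It was at 5.95, 6.08, 6.22, 5.95 and 5.82 in MYC tumors and at 5.63, 5.75 and 5.65 in NTL, a change of 0.33 ± 0.1 (adjusted p = 0.014). The groups did not overlap, but the call was lost without MYC NTL 1 or 3 (adjusted p = 0.0665 and 0.0535) and with centred arrays (0.25, adjusted p = 0.0602). In DEN and LT, Kifc5b differed by 0.08 (95% interval -0.09 to 0.25) and 0.11 (-0.09 to 0.3). Kif15, which helps to keep the spindle bipolar, was at 4.9, 5.23, 4.82, 5.35 and 5.02 in DEN tumors against 4.24 to 4.68 in NTL. It was at 4.78, 5.08 and 4.67 in LT tumors against 4.28 to 4.51, and at 5.46, 5.52, 5.97, 5.26 and 5.39 in MYC tumors against 4.65, 4.44 and 4.5. No pair of groups overlapped for Kif15, which rose by 0.6 ± 0.11, 0.46 ± 0.13 and 0.99 ± 0.13 in DEN, LT and MYC. Kif22, a chromosome-bound motor, rose by 0.62 ± 0.17, 0.55 ± 0.2 and 1.31 ± 0.2, and Kif14, which acts in cytokinesis, by 0.55 ± 0.12, 0.42 ± 0.13 and 0.82 ± 0.13. In LT, the Kif15 and Kif14 calls were lost without tumor 2, at adjusted p of 0.0918 and 0.28, where the Kif14 change was 0.24. The LT call of Kif14 was also lost without NTL 2 or 3, and that of Kif22 without tumor 1 or 2 or NTL 2, 4 or 5.

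**Figure D2:**
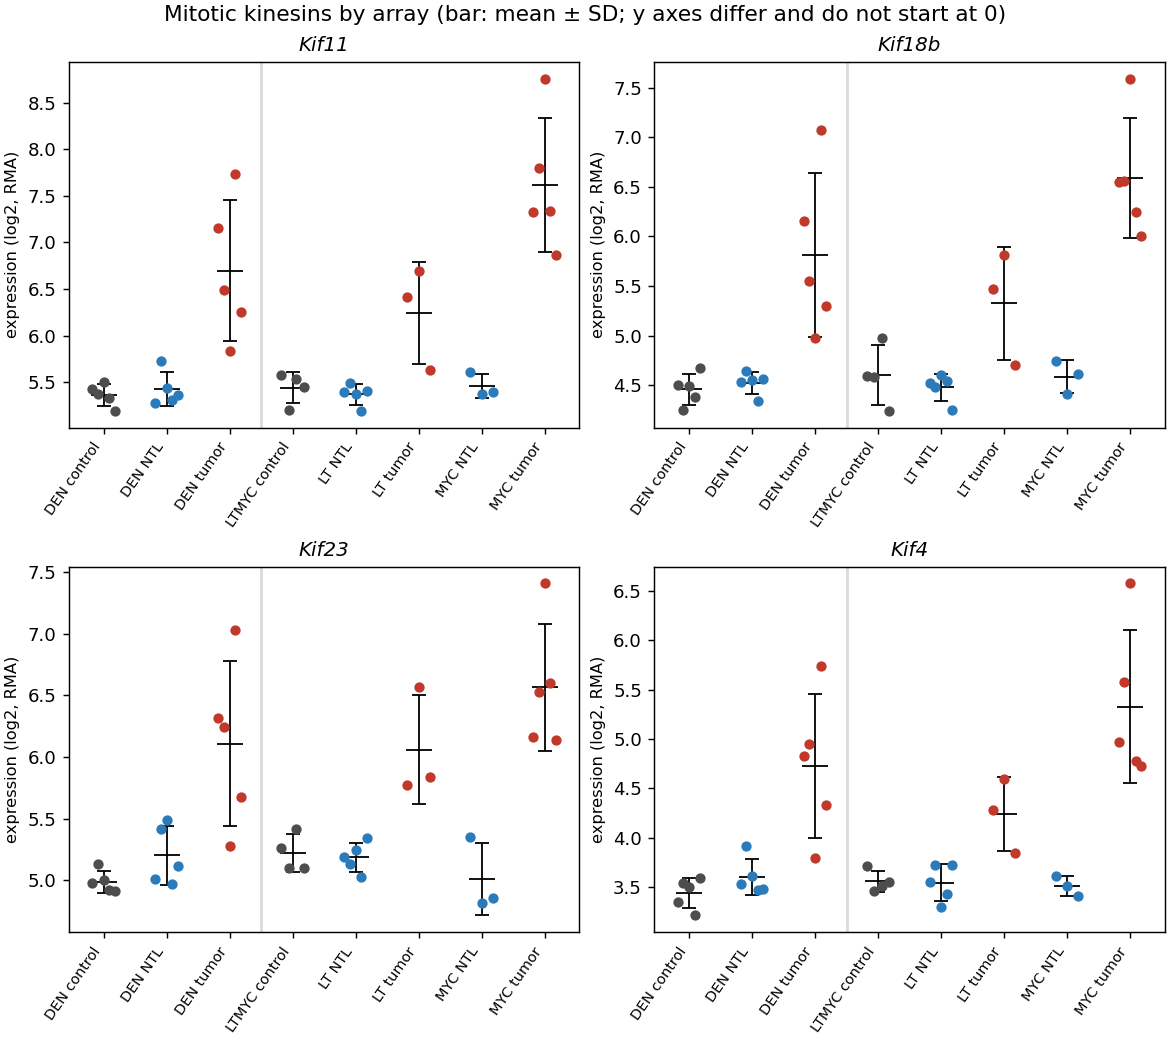
Log2 levels of Kif11, Kif18b, Kif23 and Kif4 are plotted per array in 8 groups, with points for arrays and bars for mean ± SD. Tumor arrays spread widely, and control and NTL arrays lie close together in both experiments.

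The LT count rested on single arrays. Without LT tumor 2, limma called 0 of 11 mitotic kinesins, with 3 at an unadjusted p under 0.05. It called 9 without LT tumor 3, 3 without tumor 1 and 2 to 4 without an NTL array. Xist, the female-specific RNA, was high in 3 of 3 arrays of LT tumor, 4 of 5 of LT NTL and 1 of 4 of the shared controls. No tumor or NTL array of DEN or MYC had high Xist. With high Xist as a covariate 3 were called, Kif11 and Kif22 being lost (adjusted p = 0.0533 and 0.0598). With only LT tumor and NTL arrays fitted, 1 was called, and Kif11, Kif14, Kif15 and Kif22 were lost (adjusted p = 0.0586, 0.119, 0.0564 and 0.0848). With centred arrays 2 were called, and Kif11, Kif14 and Kif22 were lost (adjusted p = 0.0565, 0.108 and 0.0849).

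Tumor arrays of a model differed in how far the mitotic class rose. The mean change of the 11 genes from the NTL mean was 0.97, 0.77, 0.23, 1.45 and 0.44 in DEN tumors 1 to 5. It was 0.64, 0.99 and 0.2 in LT tumors and 1.12, 1.4, 2.22, 1.2 and 0.94 in MYC tumors. DEN tumor 4 was highest for 10 of 11 genes, LT tumor 2 for 10 and MYC tumor 3 for 11. DEN tumors 1 and 4, DEN tumors 3 and 5 and LT tumors 1 and 2 share a mouse identifier stem. The mean change of the transport class was 0.1 to 0.37 in DEN tumors, -0.09 to 0.1 in LT tumors and 0.08 to 0.15 in MYC tumors. The DEN means include Kif5c, the transport gene with the largest DEN change. The largest difference of a single transport gene was 1.16, 3.28, 3.32, 4.7 and 3.9 in DEN tumors 1 to 5. There 8, 8, 9, 8 and 11 of the 16 genes lay above the NTL mean.

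**Figure D3:**
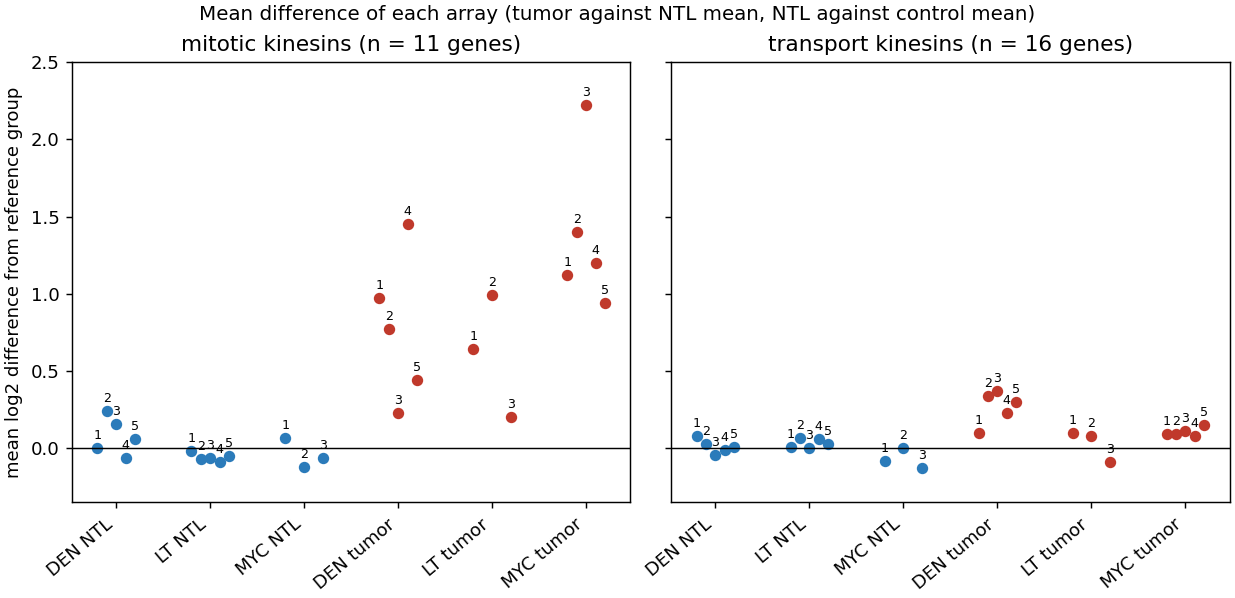
The mean log2 difference of each array is plotted for the 11 mitotic and the 16 transport kinesins, tumors against the NTL mean and NTL against the control mean, with replicate numbers. Mitotic means of tumors run from 0.2 to 2.22 and transport means from -0.09 to 0.37, where the DEN values include the large change of Kif5c.

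Other genes of cell division, listed without kinesins, moved with them. Of 29 measured, 27 were called higher in DEN, 20 in LT and 27 in MYC, against 15.6%, 10.7% and 11.5% of all genes. Their median changes were 1.22, 1.07 and 2.14. Mki67, the proliferation marker, rose by 2.11 ± 0.36, 1.87 ± 0.41 and 3.04 ± 0.41 in the 3 models. Ccna2, a cyclin, rose by 1.98 ± 0.38, 1.78 ± 0.44 and 3.38 ± 0.44, and Top2a, a topoisomerase, by 1.6 ± 0.28, 1.34 ± 0.32 and 2.38 ± 0.32. Bub1, a checkpoint kinase, rose by 1.64 ± 0.37, 1.83 ± 0.43 and 3.18 ± 0.43. The mean change of the 29 genes was also highest in DEN tumor 4 (2.27), LT tumor 2 (1.74) and MYC tumor 3 (2.88). In LT tumor 3 it was 0.27, and that tumor was the lowest in LT for 28 of the 29 genes. Cenpe, a kinetochore kinesin whose symbol lies outside the rule, rose by 0.86 ± 0.29, 1.11 ± 0.33 and 1.95 ± 0.33. A probe set shared by Kif20a and Cdc23 had means of 5.46 in DEN NTL and 6.8 in DEN tumors, 4.91 and 6.7 in LT, and 5.2 and 7.94 in MYC. A brighter probe set of the same genes moved less, from 7.5 to 7.63 in DEN, 7.55 to 7.7 in LT and 7.5 to 7.94 in MYC. Neither can be assigned to either gene. The probe set shared by Kif4 and Pdzd11 went from 7.79 to 7.79, 7.74 to 7.48 and 7.69 to 7.75 in DEN, LT and MYC. That shared by Kifc1 and Kifc5b went from 6.02 to 5.85, 5.83 to 5.81 and 5.9 to 6.06.

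Against controls, 9 mitotic kinesins were higher in DEN tumors, 4 in LT tumors and 11 in MYC tumors, where 15%, 8.78% and 10.2% of all genes were. The LT count ran from 0 to 8 when 1 array was left out: 0 without LT tumor 2 or LTMYC control 2 (1 and 5 at an unadjusted p under 0.05 by limma), 1 without LT tumor 1 or control 3 or 4, 2 without control 1, and 8 without LT tumor 3. With replicate numbers as a block it was 2. In NTL against controls, limma called no mitotic kinesin in any model, and none had an unadjusted p under 0.05. Over all 39 members, 0 were called in DEN NTL (2 at an unadjusted p under 0.05), 2 in LT NTL and 1 in MYC NTL, against 0.197%, 2.41% and 3.83% of all genes.

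The transport kinesins moved in both directions. In DEN tumors 6 of 16 rose and 4 fell, in LT tumors 1 rose and 3 fell, and in MYC tumors 3 rose and 3 fell. The share of all genes called lower was 16.7% in DEN, 9.73% in LT and 10.3% in MYC. Their median change was 0.07, 0.1 and 0.13. Every tumor array lay above every NTL array for 4 transport genes in DEN, 0 in LT and 5 in MYC, against 10.7%, 7.4% and 13% of all genes. Every tumor array lay below every NTL array for 1 transport gene in DEN, 3 in LT and 3 in MYC, against 11.7%, 8.92% and 13.9% of all genes. Kifc2 fell in all 3 models, 5 genes were called in 2 models, 7 in 1 and 3 in none. The uncalled genes include Kif5b, the widespread conventional kinesin heavy chain, which differed by -0.03 in DEN (95% interval -0.24 to 0.18) and 0.09 in LT (-0.15 to 0.33).

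Kif5c, a heavy chain of conventional kinesin known mainly from neurons, was called in DEN tumors and in neither other tumor group. It was at 5.69, 7.9, 7.94, 9.32 and 8.52 in the 5 DEN tumors, between 4.44 and 4.82 in DEN NTL and between 3.99 and 4.2 in DEN controls. All DEN tumors lay above all NTL arrays, with tumor 1 lowest. The change was 3.25 ± 0.32, or 9.53-fold (adjusted p = 4.64e-09). Kif5c was between 3.96 and 4.14 in LT tumors and between 3.95 and 4.12 in MYC tumors, with both group means under the arrays' first quartiles (4.13 to 4.24). The DEN change exceeded the MYC change by 3.14 ± 0.49 (adjusted p = 5.07e-05), and the LT change was below the DEN change, the difference being -3.09 ± 0.49 (adjusted p = 0.000124). The 7 measured markers of neurons and Schwann cells had array means of 4.57 to 4.89 in DEN tumors and 4.75 to 4.9 in DEN NTL. The 7 cholangiocyte markers had array means of 5.83 to 6.46 in DEN tumors and 5.12 to 5.32 in DEN NTL, without overlap, with 4 of 7 called higher. Their DEN changes ran from -0.08 to 3.49, with a median of 0.37. In LT these means were 5.63 to 6.26 in tumors and 5.21 to 5.49 in NTL, also without overlap. The 8 endothelial markers had array means of 8.33 to 8.57 in DEN tumors and 8.06 to 8.22 in DEN NTL. The part of these cell types in the Kif5c change was not tested.

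Kifc2, a minus-end motor described in neuronal transport, was at 6.05, 6.41, 5.76, 5.62 and 5.84 in DEN tumors and between 6.25 and 6.53 in NTL. Only tumor 2 overlapped NTL, and Kifc2 fell by 0.49 (SE 0.1, adjusted p = 0.000526). In LT it was at 6.08, 6.33 and 6.43 in tumors and between 6.92 and 7.17 in NTL, without overlap, and fell by 0.74 (SE 0.12). LT NTL itself was above the controls by 0.67 ± 0.11 (adjusted p = 0.00104), and LT tumors differed from controls by -0.06 (95% interval -0.32 to 0.19). In MYC tumors Kifc2 was between 5.73 and 6.0 and in NTL at 6.14, 6.45 and 6.25. It fell by 0.4 (SE 0.12), and the call was lost without MYC NTL 2 (adjusted p = 0.117).

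Kif13a and Kif13b, relatives that carry vesicles and membrane receptors, differed between models. Kif13a was at 7.07, 6.85 and 7.34 in LT tumors against 7.54 to 7.67 in LT NTL, and between 6.91 and 7.18 in MYC tumors against 7.36 to 7.58 in MYC NTL. Neither pair of groups overlapped, and Kif13a fell by 0.52 (SE 0.1) in LT and by 0.42 (SE 0.1) in MYC. NTL of both models was above their shared controls (7.02 to 7.2), by 0.49 ± 0.09 in LT and 0.36 ± 0.1 in MYC, and the MYC call (adjusted p = 0.0492) was lost without any one of controls 1, 2 or 3 or MYC NTL 1, 2 or 3. LT and MYC tumors differed from these controls by -0.02 (adjusted p = 0.914) and -0.07 (adjusted p = 0.674) for Kif13a, so the fall is seen against NTL only. In DEN the difference of Kif13a between tumor and NTL was 0.17 ± 0.09 and not called. Kif13b was at 7.42, 7.82, 8.01, 7.55 and 7.83 in DEN tumors against 7.76 to 8.18 in NTL, where the groups overlapped. Kif13b fell by 0.34 (SE 0.1) in DEN and by 0.49 (SE 0.11) in LT, where tumors were at 7.54, 7.89 and 7.81 and NTL between 8.1 and 8.45. The LT call of Kif13b was lost without LT tumor 1 (adjusted p = 0.0532), and with only tumor and NTL arrays fitted adjusted p was 0.0593 in DEN and 0.0544 in LT. In MYC, Kif13b differed by 0.23 ± 0.11, which was not called, and the LT minus MYC difference was -0.72 ± 0.16 (adjusted p = 0.00404).

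Kif3a and Kif3b, which pair as the motor of intraflagellar transport, rose in DEN and MYC tumors. Kif3a was between 5.95 and 6.38 in DEN tumors and between 5.59 and 5.73 in NTL, a change of 0.51 ± 0.1 (adjusted p = 0.000285). It was between 5.84 and 6.26 in MYC tumors and at 5.33, 5.37 and 5.29 in NTL, a change of 0.7 ± 0.12. Neither pair of groups overlapped. Kif3b was at 7.0, 7.28, 6.87, 6.93 and 6.91 in DEN tumors against 6.67 to 6.82 in NTL, and at 7.1, 7.13, 6.99, 7.44 and 7.41 in MYC tumors against 6.61, 6.97 and 6.92. The groups lay close together without overlap. Kif3b rose by 0.23 ± 0.08 in DEN, a call lost without DEN tumor 2 or DEN NTL 3 or 5, and by 0.38 ± 0.1 in MYC, lost without MYC NTL 1. With only tumor and NTL arrays fitted, adjusted p for Kif3b was 0.0545 in DEN and 0.0792 in MYC, and with centred arrays it was 0.141 in DEN. Against controls, Kif3b was not called in DEN tumors in any alternative fit (adjusted p from 0.16 to 0.719). In MYC tumors it was called against controls in each (adjusted p from 0.000623 to 0.0322). For Kif3a, MYC NTL lay below controls by -0.37 ± 0.12 (adjusted p = 0.0978), and MYC tumors above them by 0.33. Kifap3, the adaptor of this motor, rose in MYC by 0.45 ± 0.12 and differed by -0.07 ± 0.11 in DEN, where it was not called. Ift57, a ciliary transport protein, rose by 0.6 ± 0.21 in DEN and 1.04 ± 0.24 in MYC.

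Further transport genes were called in 1 or 2 models. Kif1b, a carrier of vesicles and mitochondria, was at 9.48, 9.32, 9.61, 8.98 and 9.52 in DEN tumors and between 9.8 and 9.98 in NTL. It fell by 0.52 (SE 0.1, adjusted p = 0.000133) without overlap, and the LT minus DEN difference was 0.71 ± 0.15. Kif5a, a further heavy chain of conventional kinesin, was at 4.51, 4.42, 4.42, 4.4 and 4.66 in DEN tumors against 4.64 to 4.77 in NTL, and at 4.65, 4.59, 4.62, 4.54 and 4.87 in MYC tumors against 4.94, 4.88 and 4.95. The DEN groups overlapped at tumor 5 and the MYC groups did not. Kif5a fell by 0.24 (SE 0.07) in DEN and by 0.27 (SE 0.08) in MYC, the MYC call being lost without MYC NTL 1 or 3 and with only the MYC tumor and NTL arrays fitted (adjusted p = 0.0674). MYC tumors differed from controls by -0.04 for Kif5a (adjusted p = 0.784), and MYC NTL from controls by 0.23 (adjusted p = 0.146). Kif21a and Kif21b, relatives that restrain microtubule growth, rose in DEN by 0.64 ± 0.15 and 0.63 ± 0.19. Kif21b was highest in DEN tumor 3 (7.26), and without it the change was 0.39 and not called (adjusted p = 0.0578), as with only DEN tumor and NTL fitted (adjusted p = 0.0744). Kifc3 rose in DEN by 0.59 ± 0.2, lost without DEN tumor 1 or NTL 3 and with stem averages (adjusted p = 0.0603). Kif16b rose in MYC by 0.51 ± 0.1, where tumors differed from controls by 0.24 (adjusted p = 0.0571). Kif1a, known from axons, was at 5.51, 5.18 and 4.19 in LT tumors and between 3.95 and 4.36 in NTL. Its change of 0.73 ± 0.19 was 0.46 and not called without LT tumor 1, and 1.12 without LT tumor 3. It was not called with only LT tumor and NTL fitted (adjusted p = 0.135) or with stem averages (adjusted p = 0.101).

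**Figure D4:**
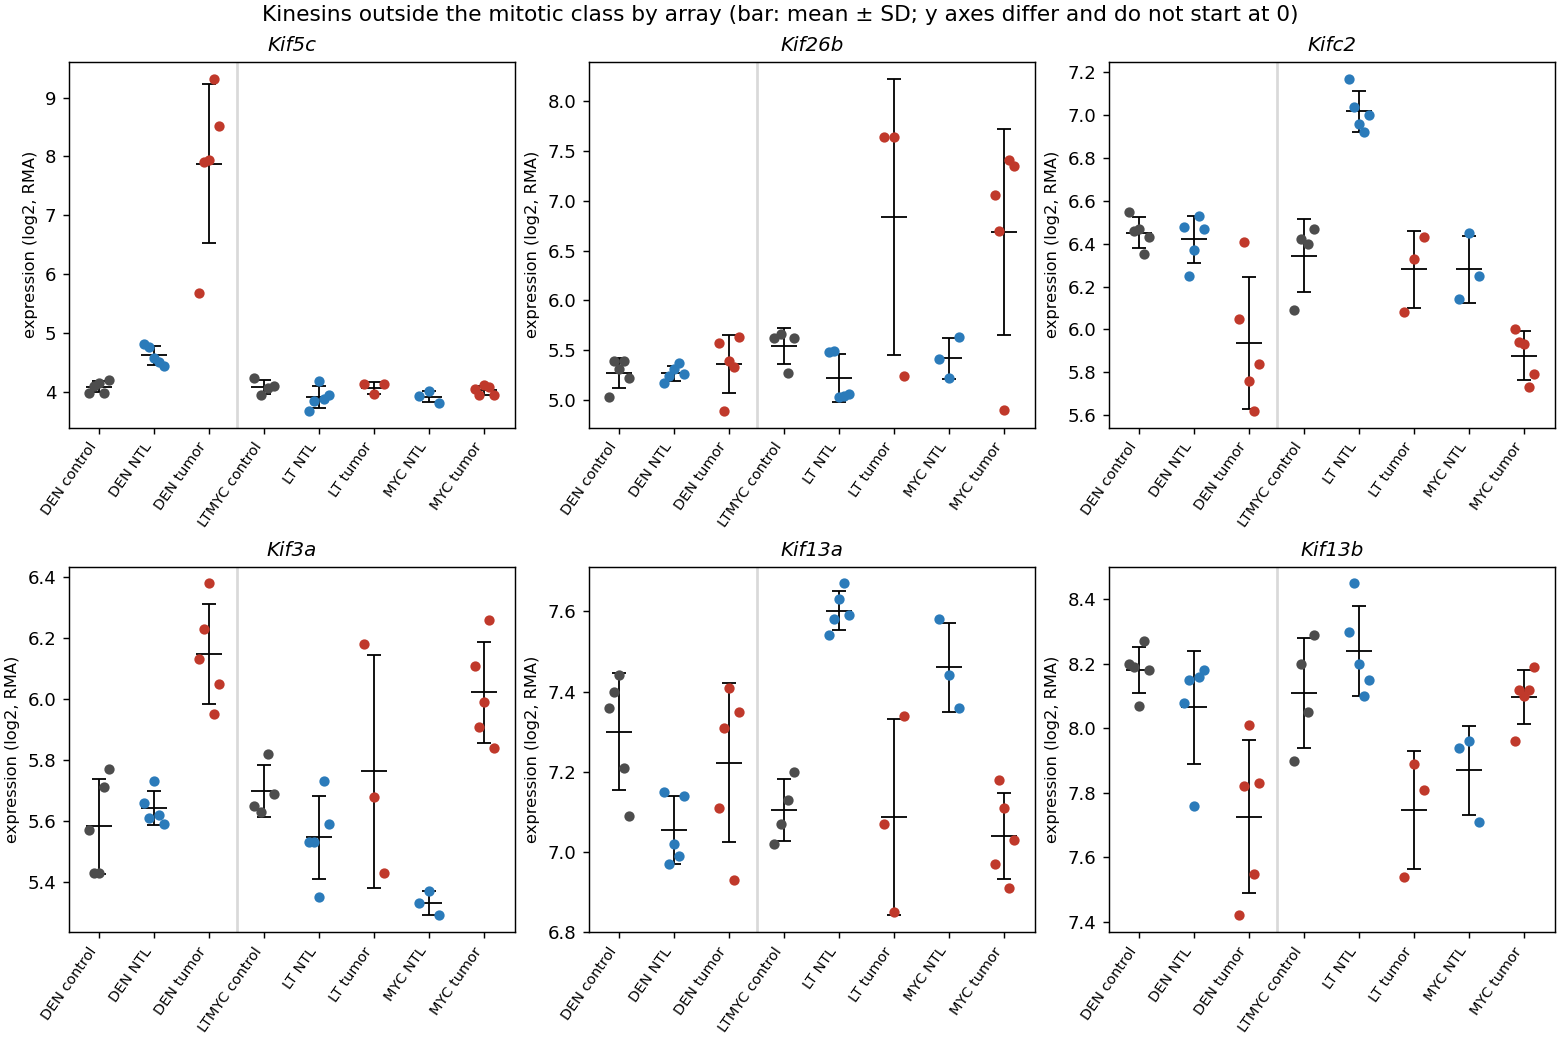
Log2 levels of Kif5c, Kif26b, Kifc2, Kif3a, Kif13a and Kif13b are plotted per array in 8 groups, with points for arrays and bars for mean ± SD. Kif5c is high in the 5 DEN tumors, from 5.69 to 9.32, and Kif26b is high in all but 1 LT tumor and all but 1 MYC tumor.

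Among the remaining members, Kif26b, a kinesin-like protein of the kinesin-11 family, moved most. It was at 7.64, 7.64 and 5.24 in LT tumors and between 5.03 and 5.49 in NTL, so that LT tumor 3 lay within NTL. The change was 1.62 ± 0.4 (adjusted p = 0.00436), and the call was lost without LT tumor 1 or 2 (adjusted p = 0.0863 and 0.057). In MYC tumors Kif26b was at 7.06, 6.7, 4.9, 7.41 and 7.35 and in NTL at 5.41, 5.22 and 5.63. MYC tumor 3, the array with the highest mitotic kinesins, was the lowest for Kif26b. The MYC change was 1.26 ± 0.4 (adjusted p = 0.0231), lost without MYC NTL 1 or 2 or MYC tumor 4 or 5. With only tumor and NTL arrays fitted, neither call held (adjusted p = 0.101 in LT and 0.119 in MYC), and with stem averages the LT change was 1.22 (adjusted p = 0.0794). In DEN, Kif26b differed by 0.09 (95% interval -0.62 to 0.8).

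Kif2a, a microtubule depolymerase of non-dividing and dividing cells, was at 7.55, 7.8, 7.77, 7.69 and 7.81 in DEN tumors against 7.39 to 7.53 in NTL. It was at 7.79, 7.81, 7.85, 7.81 and 7.74 in MYC tumors against 7.43, 7.35 and 7.54, and neither pair of groups overlapped. Kif2a rose by 0.26 ± 0.08 in DEN and 0.36 ± 0.09 in MYC. The DEN call was lost with centred arrays (0.18, adjusted p = 0.0724), and tumors differed from controls by 0.17 in DEN and 0.18 in MYC, neither called. Kif24, which acts at centrioles, was at 4.94, 5.0 and 5.14 in LT tumors and between 5.23 and 5.72 in NTL. It fell by 0.44 (SE 0.16, adjusted p = 0.0431) without overlap, and the call was lost without LT tumor 1 or 2 or LT NTL 1, 3 or 5, with only LT tumor and NTL fitted, with stem averages and with the stem block (adjusted p = 0.0815, 0.154 and 0.0529). Of the 6 kinesins of cilia, Kif24 in LT and Kif6 in DEN (fell by 0.3, SE 0.09) were called. That is 16.7% of the class in each, against 32.2% of all genes called in DEN and 20.4% in LT. None of the class was called in MYC, where 21.8% of all genes were, and none in DEN or LT tumors against controls. Kif4-ps fell by 0.22 in DEN (SE 0.07), lost without DEN tumor 2 or 5 or NTL 3, with only the DEN tumor and NTL arrays fitted (adjusted p = 0.0921), and with the mean of its probe sets, where it fell by 0.08 (adjusted p = 0.321).

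In tests of the difference between models, 6 of 39 members differed between the DEN and MYC changes, 3 between LT and MYC and 4 between LT and DEN, against 15.1%, 12.4% and 13.9% of all genes. Of the mitotic class only Kif15 was among them, with an LT minus MYC difference of -0.53 ± 0.18 (adjusted p = 0.048), which was lost in 13 fits that left out 1 array: LT tumor 1 or 3, any LT NTL, any MYC NTL, or MYC tumor 1, 2 or 3. The median difference of the 11 mitotic genes was -0.69 for DEN minus MYC and -0.69 for LT minus MYC. Kif11 differed by -1.29 ± 0.44 for LT minus MYC (adjusted p = 0.0504) and by -0.89 ± 0.41 for DEN minus MYC (adjusted p = 0.15).

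Other motor genes were counted in the same way. Of 23 dynein and dynactin genes, which drive movement to the minus end, 6 rose and 5 fell in DEN, 1 rose and 2 fell in LT, and 9 rose and 1 fell in MYC. Dynll1, a dynein light chain, rose by 0.77 ± 0.21 in DEN and 1.28 ± 0.24 in MYC. Of 14 kinesin partners and kinesins outside the rule, 5 rose and 3 fell in DEN, 3 and 3 in LT, and 5 and 3 in MYC. Those counts compare with 32.2%, 20.4% and 21.8% of all genes called in either direction in DEN, LT and MYC.

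Markers of liver cell types were counted in the same way between tumor and NTL. Of all genes, 32.2% were called in either direction in DEN, 20.4% in LT and 21.8% in MYC. Several of the marker counts lie near or under these shares. In DEN, 1 rose and 3 fell of 10 hepatocyte markers, 4 of 7 cholangiocyte markers rose, 2 of 10 lymphocyte markers fell, 2 rose and 4 fell of 9 macrophage markers, 3 rose and 2 fell of 8 endothelial markers, and 2 rose and 2 fell of 8 stellate and fibroblast markers. In LT, 2 of 10 hepatocyte markers fell, 2 cholangiocyte and 6 lymphocyte markers rose, 7 macrophage markers rose and 2 fell, 4 endothelial markers rose and 2 fell, and 5 stellate and fibroblast markers rose. In MYC, 4 hepatocyte, 1 lymphocyte and 3 stellate and fibroblast markers fell, 2 macrophage markers rose and 1 fell, and 1 endothelial marker rose and 1 fell. Array means of the hepatocyte markers were 12.69 to 12.84 in DEN tumors against 12.86 to 12.98 in NTL, and 12.68 to 12.88 in MYC tumors against 13.03 to 13.04, both without overlap. In LT they were 12.52 to 13.04 against 12.96 to 13.03. Their part in the kinesin changes was not tested.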

How the data were processed

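Labels, per the submitters, gave the groups, and total liver RNA was hybridised to 35 Affymetrix arrays. The authors deposited log2 values made with RMA, as the submitters' processing notes record, and the version used is not given in the sources used here. RMA equalises array distributions, so changes are relative to the bulk of genes. Of 35556 probe sets, 21218 carried 1 gene symbol. The brightest per gene was kept, without a filter on dim genes, giving 18820 genes. Arrays carry no read depth, and their number limits precision.

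Groups were fitted together over all 35 arrays with limma 3.58.1 in R 4.3.3 (lmFit, eBayes), with Benjamini-Hochberg adjustment over 18820 genes and a threshold of 0.05. The fit was tested on simulated data. Labels do not state that every sample is a separate animal, and 3 pairs of tumors share an identifier stem, so p-values measure the spread between these samples. Members, classes, gene lists and tests were chosen with earlier results of these data known.

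Values by array were given for the 5 mitotic members with the largest mean change, mitotic members not called in a model, members of other classes called in at least 2 models (up to 8), and the 3 smallest adjusted p-values per pair of models. Other values by array were chosen after they were seen. Of the other lists, the 3 genes with the largest mean absolute change, and Mki67, Top2a, Cenpe and Kifap3, could be named. Alternatives were fits on only the groups compared, median centring, trended and robust eBayes, mean of probe sets, dim genes left out, stem averages, a stem block, a replicate block, an Xist covariate and leaving out each array. Same-numbered tumor and NTL arrays deviated together with r of -0.044 to 0.054 in DEN, -0.025 to 0.2 in LT and -0.013 to 0.054 in MYC, so numbers were not taken as pairs. In LT tumor against control r was 0.137 to 0.233 in the 3 pairs, so the paired count is given beside that result.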

Additional observations from a re-analysis of the deposited data

Results flagged for a closer look

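Outlying arrays were looked for in 120 groups of 20 genes, and 5 groups held one, where chance marks about 1 in 20. LT tumor and MYC NTL, with 3 arrays each, were too small to be examined. The array far from the rest was DEN NTL 4 for Kif18a (4.03), DEN tumor 3 for Kifc5b (5.63), DEN NTL 3 for Kif13b (7.76), LTMYC control 3 for Kif26b (5.27) and MYC tumor 3 for Kif26b (4.9), the lowest of its group in each case.

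By a limma contrast of the tumor changes, 6 of 39 members were called for DEN minus MYC, 3 for LT minus MYC and 4 for LT minus DEN. These counts lie near or below the shares of all genes called, 15.1%, 12.4% and 13.9%. For DEN minus MYC the log2 differences were 3.14 for Kif5c, 0.59 for Kif13a, 0.78 for Kif21a, -0.57 for Kif13b, -0.51 for Kif1b and -0.38 for Kif16b. The Kif16b call (adjusted p = 0.0498) was lost in 15 fits without 1 array, that of Kif1b without MYC NTL 3 and that of Kif21a without MYC NTL 1 or 2. For LT minus MYC they were -0.72 for Kif13b, -0.8 for Kif24, lost without MYC NTL 1, and -0.53 for Kif15. For LT minus DEN they were -3.09 for Kif5c, -0.68 for Kif13a, 0.71 for Kif1b and -0.62 for Kif24, the last lost in 12 fits without 1 array. The DEN and LT or MYC samples belong to separate experiments by the labels, so model and experiment cannot be told apart. Xist was high in 3 of 3 LT tumor and 4 of 5 LT NTL arrays and in no tumor or NTL array of DEN or MYC. In contrasts with LT, model and sex therefore cannot be told apart either.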

How the results depend on the processing

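None of the 110 called member changes reversed in the alternatives run on it. Of them, 39 lost the call in at least 1 fit without 1 array and 8 moved by over 1.5 times. The LT count of mitotic kinesins higher than NTL was 5, and became 1 with only the groups compared, 2 with centred arrays, 2 with stem averages, 3 with the stem block, 3 with the replicate block and 3 with the Xist covariate. Against controls it was 4, and became 0, 1, 0, 2 and 0 in the same order without the stem block. The counts of 0 had 7, 4 and 4 genes at an unadjusted p under 0.05 (limma). The count of 1 transport kinesin higher in LT, Kif1a, became 0 with only the groups compared and with stem averages. These settings had 1 and 2 at an unadjusted p under 0.05 (limma). Leaving out dim genes also gave 0, with 1 at an unadjusted p under 0.05 (limma). That setting kept 15 of 16 transport genes and removed Kif1a, so its call was not retested there. Of the 110 called changes, 93 were retested without dim genes, and 0 weakened. Kinesins called in DEN NTL against control went from 0 to 1 with only the groups compared and with stem averages. In MYC NTL against control 1 became 2 with only the groups compared, centred arrays and stem averages, and 0 with trended robust eBayes and with the replicate block, each with 4 genes above controls at an unadjusted p under 0.05. For LT minus MYC, 3 became 1 with only the groups compared, 7 with centred arrays, 5 with mean probe sets, 5 without dim genes and 8 with stem averages. Leaving out 1 array gave 0 to 9 and 0 to 8 for these LT mitotic counts, 0 to 3 for the LT transport count, 0 to 1 in MYC NTL and 1 to 8 for LT minus MYC. The replicate block changed 6 of 110 member calls. Centring moved the median of all genes from -0.04 to -0.12 in DEN, -0.03 to -0.17 in LT and -0.03 to -0.11 in MYC tumors against NTL. Against controls it moved from -0.03 to -0.13 in DEN tumors, from -0.05 to -0.2 in LT tumors and to 0.1 in MYC NTL. Causes were not tested.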
